A study of Mus musculus with 4 samples.

Results

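Dispersed cleavage clusters are places in the mouse genome where the poly(A) tail was added at several nearby nucleotides and no single one took most of the reads. They were taken from the pooled 3'READS positions by chaining neighbours on the same strand at gaps of at most 24 nt. A cluster was a member when it lay on an autosome, held 100 or more reads and had under 40% of them at its most used position, here called the top position. The rule gave 653 members among 8398 autosomal clusters of 100 or more reads, out of 164123 clusters of any size. The members were thus chosen by the pooled share of reads at the top position, which is given below as a description. The members were 7.78% of the clusters tested and held 5.62% of their reads.

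3'READS captures poly(A)-containing RNA fragments on beads and sequences them to place the cleavage position. The RNA was a purchased mixture made from 11 cell lines of the mouse, and was poly(A)-selected and fragmented first. One library was captured with the CU5T45 oligo, which carries 5 U and 45 T and was followed by RNase H digestion, and the other on the oligo(dT)10-25 beads of a poly(A) selection kit. No strain, treatment or age is given for the mixture, and which line a read came from cannot be told. CLIP-seq of CstF64, in which UV light joins the protein to RNA that is then cut by RNase T1 and recovered with an antibody, was done on proliferating C2C12 myoblasts in 2 replicates. CLIP and cleavage therefore come from different RNA.

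Most messenger RNAs are cut by a protein complex that reads an A-rich hexamer upstream of the site and U- or GU-rich sequence downstream of it, and a poly(A) polymerase then extends the new end. CstF64 is the RNA-binding subunit of CstF, the part of that complex that binds the downstream element. Cleavage at a site is known to be imprecise, so that messages of 1 site can end at several neighbouring nucleotides. Positions are those of the mm9 build, and since whether they count from 0 or 1 is not stated, they are exact to within 1 nt.

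The CU5T45 library held 6738355 reads and the oligo(dT)10-25 library 3482826, and the members took 5.06% and 4.22% of them. The CLIP files held 1101047 and 1352122 distinct alignments. Of the alignments of replicate 1, 80.7% were also in replicate 2 with the same ends, and whether the replicates came from separate cultures is not given, so they are shown side by side and never as independent samples. Each oligo had a single library, so differences between the oligos have no replicate check. Intervals are 95% exact intervals that cover counting error, and since PCR copies are not separate molecules, they are too narrow.

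One stretch of chromosome 17 stands apart. On its plus strand 4 members lay between 39983259 and 39985203, within 1945 nt. General knowledge of the mm9 assembly, not an annotation used here, places this stretch in the gene of the 45S ribosomal RNA precursor, which is made by RNA polymerase I. These 4 members held 2800 of the 5719 CLIP alignments within 100 nt of a top position in replicate 1 (49.0%) and 2797 of 6358 in replicate 2 (44.0%). Alignments were counted for each member, so one near 2 top positions enters these sums for both. The windows at 39984594 and 39984726, which are 132 nt apart, overlap. Values that rest on the 4 members are given with and without them.

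In most members a few sharp positions shared the reads. The top position held a median of 34.7% and the second 26.0%, and together they held a median of 60.2% (from 11.4% to 78.8%). In 558 of 653 members (85.5%) the top 2 positions already reached 50% of the reads, 74 needed 3 positions, and the most any needed was 11. The top position had under 1.5 times the reads of the second in 508 members (77.8%, interval 74.4 to 80.9). Members had a median of 11 positions over 28 nt, against 6 positions over 17 nt at other clusters of the same abundance, that is, the remaining 7745 autosomal clusters of 100 or more reads weighted to the members' distribution of reads.

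The spread was mostly short. The median member had 94.0% of its reads within 10 nt of the top position and 56.1% within 3 nt. In 362 members (55.4%, interval 51.5 to 59.3) at least 90% of reads lay within 10 nt. A span over 100 nt was found in 14 members, and 4 had 40 or more positions. Of these 4, 3 lie in the stretch on chromosome 17, with 53, 73 and 98 positions. The other, named after its values were seen, lay on the minus strand of chromosome 9 at 66875780, with 8018 CU5T45 and 4112 oligo(dT)10-25 reads at 51 positions over 129 nt and its top 2 positions 82 nt apart. At the edge of the rule, the 3 members just under the limit had 39.92%, 39.94% and 39.95% of reads at the top position, and the 3 clusters just outside it had 40%.

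The top 2 positions of a member were close together, and about as close as in other clusters at the median. They were a median of 4 nt apart in members and 4 nt apart in other clusters of like abundance. The most frequent spacing was 2 nt in both, at 123 members (18.8%) and 22.2% of the others. Members had more pairs far apart. The top 2 positions were more than 10 nt apart in 131 members (20.1%, interval 17.1 to 23.3) against 11.5% of the others, and more than 24 nt apart in 39 members (5.97%, interval 4.28 to 8.07) against 1.62%. Spacings of 4 to 10 nt were less frequent in members, at 39.5% (35.7 to 43.4) against 47.0%. Spacing comes from the same reads as the rule, so these shares describe the members.

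**Figure D1:**
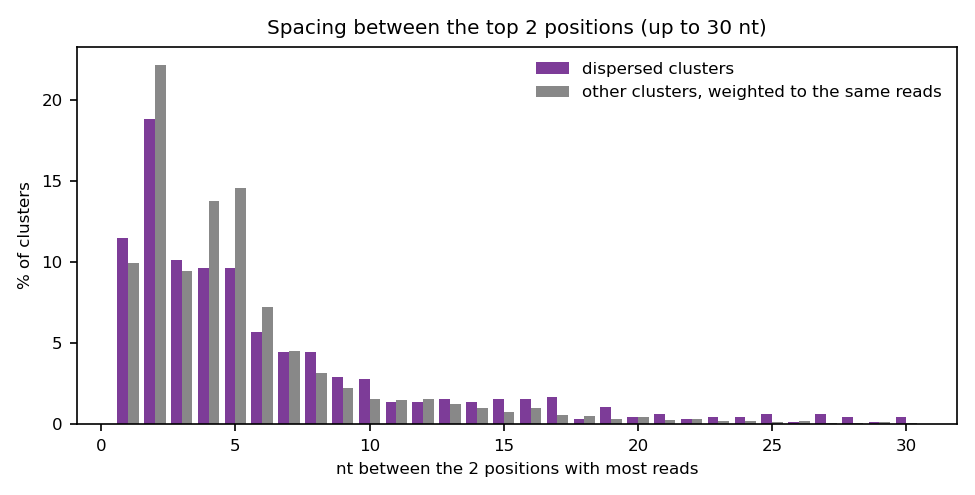
Share of clusters (vertical axis, percent) by the distance in nt between the 2 positions with most reads (horizontal axis, up to 30 nt), for the 653 dispersed clusters (purple) and for other autosomal clusters of 100 or more reads weighted to the same reads (grey). Both peak at 2 nt, where 18.8% of the dispersed clusters lie, and the dispersed clusters have the longer tail.

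The second position fell on either side of the top position. It was downstream, in the RNA direction, in 319 members (48.9%, interval 45 to 52.8), against 55.0% of other clusters of like abundance. By spacing, the second position was downstream in 54 of 92 members with 11 to 24 nt between the top 2, and in 14 of 39 with more. Members whose top 2 positions were 1 nt apart spanned a median of 19 nt with 10 positions, and those over 24 nt apart spanned 61 nt with 15 positions.

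The member with most reads lay on the plus strand of chromosome 1 with its top position at 21255293, and had 21573 CU5T45 and 6492 oligo(dT)10-25 reads. The top position took 35.7% of the CU5T45 and 37.8% of the oligo(dT)10-25 reads, and the second, 7 nt downstream, 25.5% and 23.4%. Its positions had nearly the same shares with both oligos. On the minus strand of chromosome 11 at 5701640, with 14491 and 5351 reads, the second position was the next nucleotide upstream and took 31% and 29.2%, beside 34.3% and 33.9% at the top. Its top 2 positions are the closest of the 6 members with most reads, although its 18 positions span 85 nt, and its shares also differed little between the oligos.

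On the plus strand of chromosome 15 at 100451186 the 2 oligos put most reads at different positions. The top position held 42.3% of 12775 CU5T45 reads and 31.2% of 4658 oligo(dT)10-25 reads, while the second, 19 nt upstream, held 28.8% and 47.5%. The odds of the downstream against the upstream position were 2.24 times as high with CU5T45. At 46041132 of chromosome 9, minus strand (8511 and 5441 reads), the position 10 nt upstream held 27.0% of CU5T45 and 33.3% of oligo(dT)10-25 reads, and the top position 31.1% and 31%. At 4859775 of chromosome 2, plus strand (10407 and 3322 reads), the top held 34.4% and 35.0%, and a position 10 nt downstream 33.1% and 30.3%. At 90226570 of chromosome 16, plus strand (11066 and 2205 reads), the top held 24.5% and 33.4%, a position 3 nt downstream 26.3% and 23.7%, and one 7 nt downstream 27.8% and 14.0%. Of these 6 members, 3 therefore had the same most used position in both libraries and 3 did not.

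**Figure D2:**
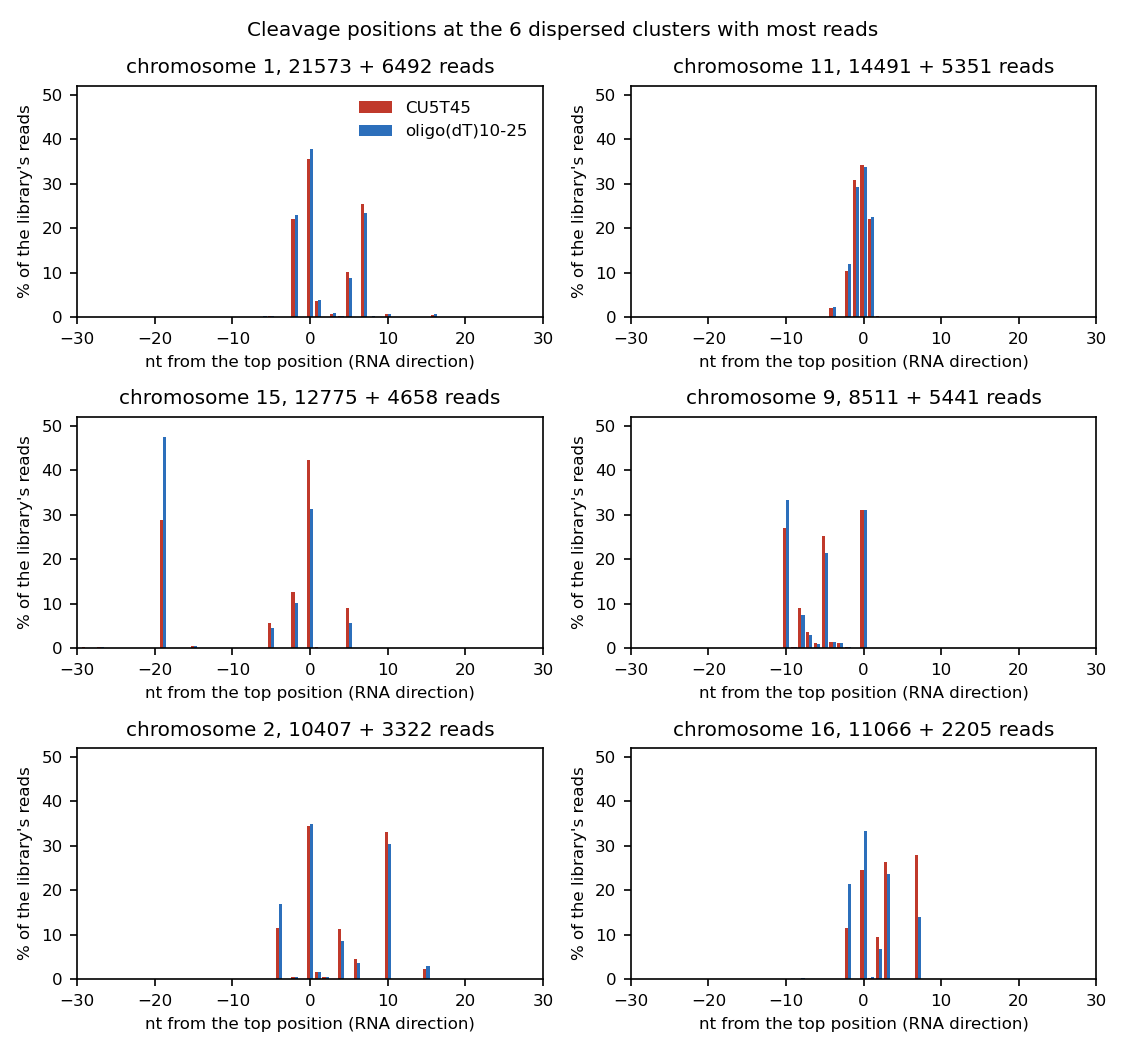
Percent of each library's reads in the cluster (vertical axis) by distance from the top position in nt, positive in the RNA direction (horizontal axis, cut at 30 nt on each side), for the 6 dispersed clusters with most reads, with CU5T45 in red and oligo(dT)10-25 in blue and the reads of each library above each panel. At chromosome 15 the position 19 nt upstream holds 28.8% of CU5T45 and 47.5% of oligo(dT)10-25 reads, while the profiles of chromosomes 1 and 11 nearly coincide.

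Among members of 1000 or more reads, the lowest top shares went with broad or evenly used clusters. The lowest, 15.7%, belongs to the chromosome 17 stretch at 39985167, with 4268 and 1571 reads at 98 positions over 248 nt. The next was compact. At 54553709 of chromosome 3, plus strand, 9 positions over 14 nt shared 947 and 308 reads, with 17.9% of the pooled reads at the top and 16.8% at the second, 2 nt upstream. On the minus strand of chromosome 6 at 124908470 the top held 19.9% of 1003 CU5T45 and 19.5% of 257 oligo(dT)10-25 reads. Outside the stretch named above, at 34750362 of chromosome 17 (plus strand), the pooled share of 19.4% hid a difference between the oligos. That position held 64 of 2040 CU5T45 reads (3.14%) and 691 of 1849 oligo(dT)10-25 reads (37.4%), while the second, 16 nt downstream, held 22.3% and 8.55%.

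The next comparison asks whether a dispersed cluster in 1 library was also dispersed in the other. Clusters were chosen by the reads of 1 library and measured in the other, whose reads the choice did not use. The cluster limits came from the pooled positions of both libraries, so the choice was not fully separate from the library measured. In most of them no position reached 40% there either. Of 498 clusters with 100 or more CU5T45 reads and a top position under 40%, 479 had 30 or more oligo(dT)10-25 reads. The CU5T45 top position held a median of 34.9% of their CU5T45 reads and 32.5% of their oligo(dT)10-25 reads (quartiles 25.9% and 39.4%). In 366 of them (76.4%, interval 72.3 to 80.1) that position was under 40% in the oligo(dT)10-25 library too, against 11.1% of all clusters measured this way. Chosen in oligo(dT)10-25, 264 clusters passed and 263 could be measured. Their top position held 34.5% of oligo(dT)10-25 reads and 33.3% of CU5T45 reads, and it was under 40% with CU5T45 in 210 (79.8%, interval 74.5 to 84.5), against a background of 9.96%. In clusters chosen for a top position of 40% or more the shares were 5.60% and 5.04%. Another position can take over in the library not used, so its own most used position was read as well. With the choice made in CU5T45, no position reached 40% of oligo(dT)10-25 reads in 316 of 479 clusters (66.0%, interval 61.5 to 70.2; 7.8% of all clusters measured). With the choice made in oligo(dT)10-25, none reached 40% of CU5T45 reads in 185 of 263 (70.3%, interval 64.4 to 75.8; 7.19%).

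**Figure D3:**
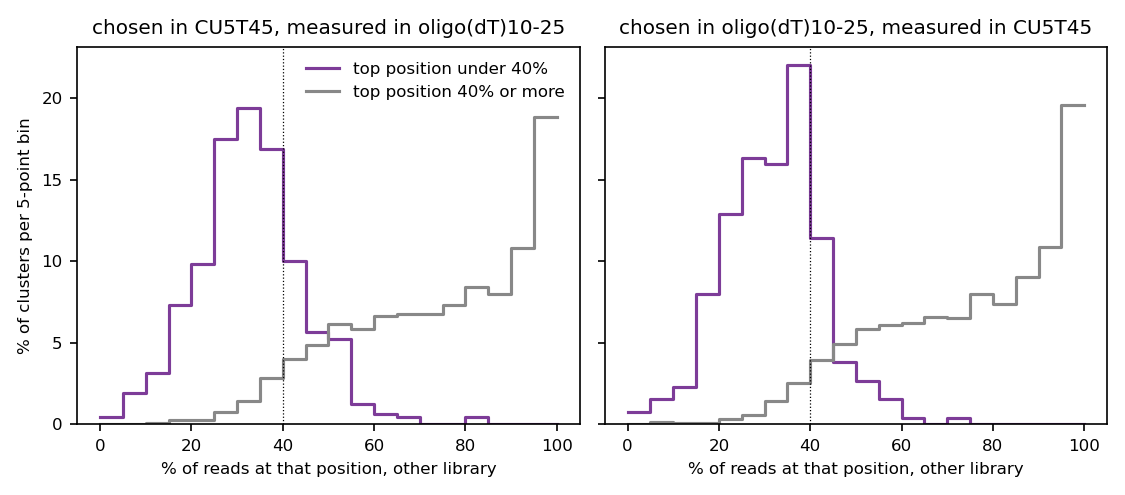
Share of clusters per 5-point bin (vertical axis, percent) by the percent of reads at the chosen top position in the library whose reads were not used to choose it (horizontal axis), for clusters with a top position under 40% (purple) and of 40% or more (grey). Cluster limits come from the pooled positions of both libraries. The dotted line marks 40%, and 76.4% of the clusters chosen as dispersed in CU5T45 and 79.8% of those chosen in oligo(dT)10-25 lie left of it.

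The oligos named the same top position less often in members than elsewhere. Of 603 members with 30 or more reads in each library, 328 (54.4%, interval 50.3 to 58.4) had the same most used position in both, so that 275 differed. A different top position was found at 8.12% of all 7793 clusters tested, and the same one at 94.9% of other clusters of like abundance. Where members differed, the 2 libraries' top positions were a median of 5 nt apart, and in 216 of 275 (78.5%, interval 73.2 to 83.2) they were the pooled first and second positions in exchange. The top positions lay over 10 nt apart in 76 members (12.6%, interval 10.1 to 15.5), beside 1.55% of all clusters tested.

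A member has 2 nearly equal positions more often than another cluster, by the rule itself, and near-equal positions can change order by counting error. Clusters were therefore also compared at the same lead, the reads of the top over those of the second position. With a lead under 1.1, 31 of 158 members (19.6%, interval 13.7 to 26.7) and 47 of 172 others (27.3%, 20.8 to 34.6) had the same top position. With a lead of 1.1 to 1.25 it was 50.7% (42.4 to 58.9) of 152 members and 53.9% (46.8 to 60.8) of 206 others. With a lead of 1.25 to 1.5 it was 65.0% (57.2 to 72.3) of 163 members against 81.6% (77.2 to 85.4) of 364 others, whose intervals are separate. With a lead of 1.5 to 2 it was 84.8% (76.4 to 91.0) of 105 against 93.9% (91.7 to 95.7) of 607, and with a lead of 2 to 3 it was 22 of 22 members (interval 84.6 to 100) and 97.0% (95.7 to 97.98) of 927 others. Members were thus lower in the classes up to a lead of 2, with overlapping intervals in the first and the second class, and not lower in the last. Weighting the others to the members' leads gave 63.3% with the same top position, beside 54.4% of members. The lead thus moved the value of the others from 94.9% to 63.3%. At equal lead, a member's top position holds a smaller share of the reads than that of another cluster, and the median reads were 257 to 281 in members and 309 to 351 in others at leads of 1.25 to 2. The rule also takes the pooled share, so clusters whose libraries favour different positions can become members through that difference. The part of each of these points in the result was not tested.

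**Figure D4:**
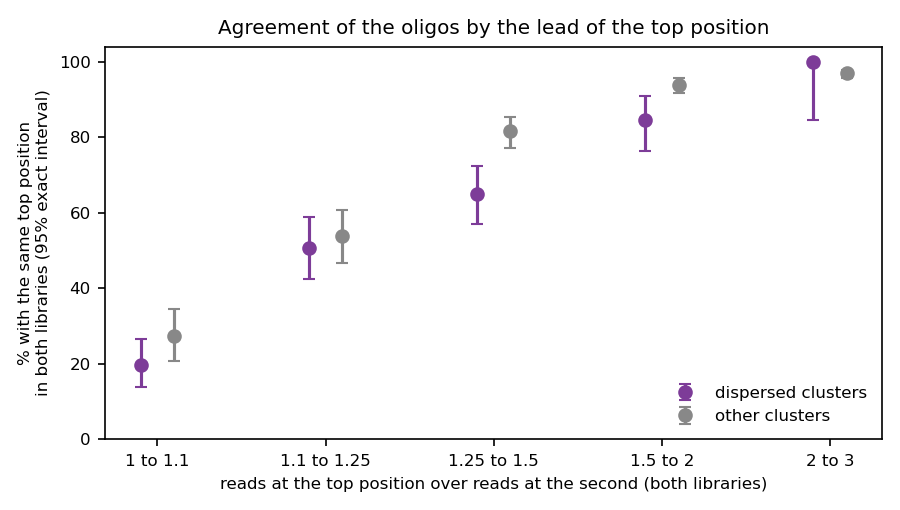
Percent of clusters with the same top position in both libraries (vertical axis, with 95% exact intervals) by the reads at the top position over those at the second in both libraries together (horizontal axis), for dispersed clusters (purple) and other clusters (grey). Both rise with the lead, from 19.6% and 27.3% at leads under 1.1, and the intervals are separate at leads of 1.25 to 1.5 and of 1.5 to 2.

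The whole spread of positions was measured by the overlap, the sum over positions of the smaller of the 2 libraries' read shares, which is 100% for identical profiles. Members overlapped by a median of 83.3% (quartiles 76.5% and 88.3%, lowest 33.4%), others of like abundance by 92.9%, and others of the same lead by 89.4%. The overlap was lower where the top 2 positions were farther apart, from a median of 85.8% at 1 nt to 83.6% at 4 to 10 nt and 75.9% at more than 24 nt. Counting error alone lowers the overlap when reads are spread over more positions. Members had a median of 11 positions against 6 at others of like abundance. Within members the median was 10 positions at a spacing of 1 nt and 15 at more than 24 nt. The rule also uses the pooled share, so a cluster whose libraries favour different positions can become a member through that difference. These medians of overlap therefore cannot separate counting error, the choice of members and a difference between the oligos, and the part of each was not tested. The member with the lowest overlap, singled out after its value was seen, lay on the plus strand of chromosome 16 at 38352851. That position held 317 of 454 CU5T45 reads (69.8%) and 60 of 758 oligo(dT)10-25 reads (7.92%), and the position 14 nt upstream held 35 (7.71%) and 336 (44.3%). Each library alone thus had a position above 40% there, and the pooled reads did not.

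Shifts between the oligos went both ways. The mean cleavage position lay more than 1 nt farther downstream with CU5T45 in 144 of the 603 members (23.9%, interval 20.5 to 27.5; 8.51% of all clusters tested) and more than 1 nt upstream in 103 (17.1%, interval 14.2 to 20.3; 7.01%). The median shift was 0.123 nt downstream in members and 0.00463 nt in others. The limit of 1 nt makes no allowance for counting error. Members spanned a median of 28 nt against 17 nt at others of like abundance. The part of counting error in the members' larger shares, and that of choosing members by pooled reads, was not tested. The odds of the top against the second position differed at least 2-fold between the oligos, with a 95% interval excluding 1, in 107 of 653 members (16.4%, interval 13.6 to 19.5). This is near the 13.6% of all 8250 clusters tested. CU5T45 favoured the downstream position in 58 of the 107 and the upstream one in 49.

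The capture ratio of members was near that of other clusters at the median, and fewer members were 2-fold lower with CU5T45. The ratio of a cluster's share of CU5T45 reads to its share of oligo(dT)10-25 reads had a median of 1.22 in members (log2 ratio 0.29, SD 0.88 over members) and 1.13 in others of like abundance. A ratio of 2 or more with an interval above 1 was found in 71 members (10.9%, interval 8.59 to 13.5), near the 10.8% of all 8398 clusters. A ratio 2-fold lower with CU5T45 was found in 51 members (7.81%, interval 5.87 to 10.1), against 11.1% of all clusters and 11.6% of others of like abundance. At 4-fold it was 6 members higher (0.919%, beside 1.14% of all) and 11 lower (1.68%, beside 3%).

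The highest ratios were moderate and the lowest extreme. The highest, 5.17 (2.85 to 10.3), was at 79674618 on the minus strand of chromosome 2, where 120 reads came from CU5T45 and 12 from oligo(dT)10-25 at 3 positions. Chromosome 11 at 78104115, plus strand, followed with 242 and 26 reads (ratio 4.81, interval 3.2 to 7.51), and chromosome 7 at 148679312, plus strand, with 163 and 20 (4.21, 2.64 to 7.08). Of the lowest, the member at 104561445 on the minus strand of chromosome 7 has the most reads, with 415 CU5T45 and 3204 oligo(dT)10-25 reads, 14.9-fold lower with CU5T45 (13.5 to 16.6). There the top position held 27.5% and 33.2% and the second, 2 nt upstream, 4.82% and 21.5%. The counts at 59249822 of chromosome 7, plus strand, were 13 and 105, which is 15.6-fold lower with CU5T45 (8.75 to 30.3). On the minus strand of chromosome 11 at 55208906 there was 1 CU5T45 read beside 190 oligo(dT)10-25 reads, a ratio of 0.00272 with a counting interval from 6.85e-05 to 0.0153. The dispersion of this last member is that of the oligo(dT)10-25 library alone.

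Members occurred at every abundance and on every autosome. They made up 8.91% (7.90 to 9.99) of clusters with 100 to 200 reads, 7.38% (6.44 to 8.40) of those with 200 to 500, 7.15% and 7.17% of the next classes up to 1000 and up to 5000 reads, and 12 of 251 clusters of 5000 or more (4.78%, 2.49 to 8.20). By chromosome the share ran from 5.59% (3.29 to 8.80) of 304 clusters on chromosome 14 to 11.1% (7.62 to 15.5) of 270 on chromosome 13, and these intervals overlap. The plus strand held 50.7% of members and 50.6% of the others. Another cluster of 10 or more reads lay within 400 nt on the same strand of 219 members (33.5%, interval 29.9 to 37.3), against 27.2% of others of like abundance. Within 1000 nt it was 45.3% (41.5 to 49.2) against 39.6%.

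The last comparison asks where CstF64 was crosslinked around dispersed clusters. The share of members with CstF64 nearby was close to that of all clusters. In 396 of 653 members (60.6%, interval 56.8 to 64.4) at least 1 alignment was centred within 100 nt of the top position in both replicates, beside 56.8% of all 8398 clusters. The others of like abundance were at 56.3%, just below the members' interval. The number was small in most, with a median of 1 alignment, and 75 members (11.5%) had 10 or more, beside 9.97% of others of like abundance. With top 2 positions over 10 nt apart, 65.6% (56.9 to 73.7) of 131 members had an alignment, and with closer ones 59.4% (55.0 to 63.6) of 522. The amount of each RNA in C2C12 cells was not analysed here, so alignments are not corrected for it.

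CstF64 lay on both sides of the top position. Counting each cluster once, 33.7% of members (30.1 to 37.5) had an alignment centred 1 to 40 nt upstream and 29.4% (25.9 to 33.1) one 1 to 40 nt downstream. In windows of the same width 201 to 240 nt away it was 15.0% upstream and 11.2% downstream. The others of like abundance had 30.01% and 28.6% beside the site and 13.3% and 12.0% away from it. The downstream interval of members includes the value of the others. The upstream one starts at 30.07%, just above it, and at 29.7% once the chromosome 17 stretch is left out, where the share is 33.3%.

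Summed alignments gave another picture, which rests on the chromosome 17 stretch. Downstream, 1042 alignments in replicate 1 (exact Poisson interval 980 to 1107) and 1184 in replicate 2 were centred 1 to 40 nt from the top position. Their density over that 200 to 400 nt away was 2.09 (1.96 to 2.24) and 2.21 (2.08 to 2.36), against 3.82 and 3.68 at other clusters of like abundance. Without the 4 members of the stretch the ratio was 4.26 (3.90 to 4.64) and 4.15 (3.83 to 4.49), above that of the others. These intervals count alignments singly and make no allowance for their uneven share among clusters. Counted once per cluster, 29.0% of members outside the stretch and 28.6% of the others had an alignment in this downstream window. Upstream the ratio was 3.81 (3.61 to 4.01) and 3.83 (3.63 to 4.03) with the stretch and 5.38 (4.96 to 5.83) and 5.35 (4.97 to 5.75) without it, against 4.58 and 4.56. On the opposite strand, the ratio in members was 0.909 and 0.968 downstream, against 1.92 and 1.71 at the others, and 0.802 and 0.558 upstream, against 0.907 and 0.963. The members' downstream values rest on 17 and 26 alignments. Whether summed CstF64 density at dispersed clusters is above or below that of other clusters thus depends on 4 of 653 members.

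Alignments were unevenly shared among members. The 10 with most held 60.5% of all alignments of members when the lower replicate is taken for each member and 28.7% once the stretch was left out. In the stretch, the member at 39984726 had 1517 and 1478 alignments within 100 nt beside 347 CU5T45 and 134 oligo(dT)10-25 reads, and the member at 39984594 had 877 and 901 beside 154 and 57 reads. Their windows overlap, so an alignment can be counted for both. The member at 39985167 had 281 and 284 beside 4268 and 1571 reads. The member with most alignments elsewhere lay on the minus strand of chromosome 13 at 97960503, with 270 and 312 alignments beside 80 and 47 reads at 31 positions. Its top position held 11.0% of the reads, and the overlap of the oligos was 38.1%. Of these 4 members, 3 had more alignments than 3'READS reads in each CLIP replicate, and the one at 39985167 had far fewer. Without the stretch, the summed profile still rose 51 to 60 nt upstream, to 36.7 and 43.3 alignments per 100 clusters against 14.5 and 17.5 at the others, while 9.71% of these members and 7.29% of the others had an alignment there in both replicates.

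**Figure D5:**
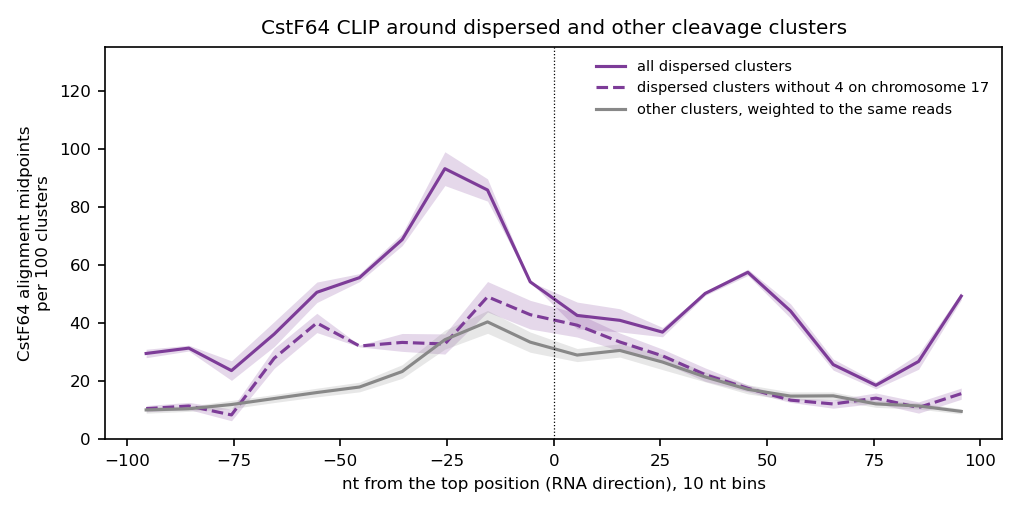
CstF64 alignment midpoints per 100 clusters (vertical axis) in 10 nt bins by distance from the top position, positive in the RNA direction (horizontal axis), for all 653 dispersed clusters (solid purple), for them without the 4 on chromosome 17 (dashed) and for other clusters weighted to the same reads (grey). Lines are means of the 2 CLIP replicates and bands their range. The second rise, 41 to 50 nt downstream, is at 56.4 and 58.5 per 100 clusters with the 4 members and 16.3 and 18.6 without them.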

How the data were processed

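The authors deposited whole-number read counts: per cleavage position and strand for 3'READS, and per distinct alignment for CLIP-seq. No normalization is stated, per the labels. Bowtie, Novoalign and mm9 are named in the submitters' processing notes, with no role stated, and read filters are not given in the sources used here. The reference at hand is GRCm38, so gene names and sequences at the sites were not used here, and coordinates were not converted.

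Positions of both libraries were pooled and chained at gaps of at most 24 nt, and ties for the top position went to the most upstream one. Other clusters were weighted in strata of 0.5 log2 reads. Intervals of shares are Clopper-Pearson, those of capture ratios exact conditional binomial, and those of the odds Woolf's with 0.5 added. CLIP alignments were placed by their midpoint, of median length 35 and 36 nt. With single libraries per oligo and CLIP replicates not treated as independent, no p-values are given. Alternatives changed the gap, read minimum, threshold, library, CLIP placement, flanks and replicates. The clustering and its statistics were tested on simulated data. The tools were scipy 1.17.1, pandas 2.3.3 and numpy 2.4.6 under Python 3.11.15, with figures by matplotlib 3.10.9.

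Named members are the 6 with most reads, the 4 with the lowest top share among those of 1000 or more reads, the 3 highest and 3 lowest capture ratios with intervals excluding 1, the 4 with most CLIP alignments, the 3 with most positions, and the 3 clusters on each side of the threshold. The members and lists were chosen with earlier results of these data known. The comparison at equal lead, the most used position of the library not used, the counts of clusters with an alignment by window and the values without the chromosome 17 stretch (3 or more members within 2000 nt of each other) were chosen after seeing the data.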

Additional observations from a re-analysis of the deposited data

How the results depend on the processing

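Of 95 values under alternative settings, 65 stayed within the counting interval of the reported value, or within 1.5 times for the number of members, 25 moved outside it and 5 changed the order of members and other clusters. These 5 are all summed CLIP densities. Some of the 65 could not move. Matching on the lead changes only the values of the others, and counting every read cannot change the share of clusters with CLIP. Without the chromosome 17 stretch the downstream ratio was 4.20 (others 3.74) and the upstream ratio 5.36 (4.57), and without the 1% of clusters with most alignments 3.91 (3.33) and 4.95 (3.95), in place of 2.15 and 3.82. Counting every read gave 5.93 upstream (others 4.80) and 1.60 downstream. The order of members below others downstream held under the gaps, read minimum, thresholds, alignment ends, anchor and flank tried. None of these settings set the chromosome 17 stretch aside, so they cannot tell whether the order would hold without it. The downstream and upstream ratios were 1.16 and 3.2 with a threshold of 30%, 2.68 and 4.08 with 50%, 2.35 and 2.79 by the 5′ end of alignments, 2.59 and 3.09 by the 3′ end, and 2.47 and 3.2 around the read-weighted median position. A gap of 12 nt gave 3.2 upstream. Without either replicate they ran from 2.09 to 2.21 and from 3.81 to 3.83, and the share of members with CLIP from 62.2% to 62.8%. The cause of the other moves was not tested.

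The number of members was 147 with a threshold of 30%, 1531 with 50% and 390 with 200 or more reads. It was 264 by the reads of the oligo(dT)10-25 library alone, within the pooled cluster limits. The same top position was found in 39.6% of members with 30% (others of like abundance 92.8%) and 65.2% with 50% (97.8%). It was 60% with 100 reads in each library (95.6%) and 65.5% within 2 nt (96.2%). The median overlap was 85.4% with 50%, 85.2% with 200 or more reads and 86.9% with 100 in each library. The pooled top 2 positions were over 10 nt apart in 20.1% of members, and in 16.1% with a gap of 12 nt (others 8.92%). Neighbouring positions more than 12 nt apart fall into separate clusters at that gap, and the part of this in the lower share was not tested. The median spacing of the top 2 was 4 or 5 nt throughout. A capture ratio of 2-fold in either direction was called in 18.7% of members and 22.4% of others of like abundance. One of 4-fold was called in 2.60% and 4.32%. The oligos were compared within each cluster. With 1 library for each oligo, a paired test over replicate libraries was not possible.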
